A study of Mus musculus with 6 samples.

Results

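The genes of cholesterol synthesis, of the sterol regulatory element-binding proteins (SREBP) and of the liver X receptors (LXR) were described in osteoblasts, the cells that build bone, taken from the calvaria (skull vault) of neonatal mice. The set held 33 genes of the 29018 in the deposited table, found there by symbol with 1 identifier each. It was chosen on the readout itself: the members were selected by the rise of the pathway in KO against WT. Their changes in that comparison are therefore a description: no p is given for a member, and the calls of the fit over all genes are counted for them without being read as evidence. All 33 had enough counts to enter the fit over 18221 genes. The cells were wild type (WT) or knockout (KO) for NDR1, a serine/threonine kinase encoded by Stk38, with 3 RNA-seq libraries of each genotype, all made from poly(A) RNA after osteogenic differentiation. The labels give no strain, sex or design of the KO allele, and do not say whether replicates came from separate mice or cultures, so errors and p-values cover only how these 6 libraries differ, which may be technical variation.

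Cholesterol is built from acetyl-CoA in a long chain of enzymes. Mevalonate steps make isoprenoid units, which are joined to squalene, closed to the first sterol, lanosterol, and trimmed to cholesterol. When sterols in the endoplasmic reticulum run low, the escort protein Scap carries SREBP precursors to the Golgi, where they are cut and freed to enter the nucleus and switch on the enzymes' genes. Insig proteins hold Scap back when sterols are plentiful. LXR receptors are activated by oxysterols, and among their targets are genes that export cholesterol or limit its uptake.

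In brief, 13 of the 19 enzymes of cholesterol synthesis stood modestly higher in KO by the call defined below, by up to 43.2% (Msmo1). So did 3 of 6 genes of SREBP control. Some of these calls were lost in alternative fits. Among the enzymes, Acat2 lost its call in 8 of 14 and Dhcr7 in 6, and among the control genes Scap in 6 and Srebf1 in 2. Over all genes tested, 11.2% were called higher and 11.7% lower, which is background and no test of the members. The LXR targets Abca1 and Mylip were lower. Outside the members, the LXR targets Lpcat3 and Smpdl3a were not called, and Arl4c was called higher but not in every fit. The changes are small, with a median log2 change of 0.15 over the 33 members and 0.20 over the 19 synthesis enzymes, against 0.00 over all genes tested. Levels are given as FPKM, fragment counts scaled to transcript length and library total, as deposited. Changes are log2 KO over WT ± SE from edgeR on the deposited counts, scaled by TMM (a scaling that takes most genes as unchanged). A gene is named called where edgeR's Benjamini-Hochberg adjusted p over all genes was under 0.05. Ratios of FPKM run slightly higher than the TMM-scaled changes, since another scaling (library totals) moved the change of a typical gene by 0.05.

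Total counts per library ran from 61461870 to 76159034, and the least-read member in any library, Abcg1, had 73 counts. The KO gene Stk38 was at 4.17, 3.98 and 4.31 FPKM in KO and 5.83, 6.20 and 6.35 FPKM in WT, lower in every KO library (log2 change -0.61 ± 0.05) but still read. Of 10 osteoblast markers 1 was called higher and 5 lower. The higher one was Spp1, at 1052, 904 and 1059 FPKM in KO against 384, 336 and 388 in WT (log2 change 1.39 ± 0.07). Col1a1 was abundant and called lower (3308, 3333 and 3448 FPKM against 4353, 4530 and 4525), as was Col1a2 (log2 change -0.51 ± 0.02), while Bglap was barely read (0.275 to 0.831 FPKM in KO and 0.611 to 1.60 in WT). RNA of other cell types moved with genotype. Of 18 macrophage markers 16 were called higher in KO and none lower, and their summed level ran from 654 to 729 FPKM in KO and from 249 to 330 in WT, with Lyz2 (1.12 ± 0.09) and Mrc1 (1.25 ± 0.10) the most read. Of 11 adipocyte markers tested out of 13, 9 were called lower and none higher (summed 39.2 to 41.2 FPKM in KO, 57.6 to 61.4 in WT). Cidec, Lep and Retn had no count in any KO library, but were near the floor in WT as well. Their WT counts were 31, 38 and 11 for Cidec, 0, 4 and 8 for Lep, and 8, 17 and 4 for Retn. Lep and Retn had too few counts to be tested. Lpl (-1.05 ± 0.03) and Cebpa (-0.24 ± 0.04) were the most read. Muscle and endothelial markers were scarce. Summed levels for muscle were 3.54 to 4.43 FPKM in KO and 6.18 to 7.15 in WT. For endothelium they were 1.47 to 1.81 in KO and 2.89 to 3.05 in WT. Ckm had no count in KO and only 4, 0 and 0 counts in WT. Of 6 muscle markers tested 2 were called lower, with the most read, Acta1 (-0.38 ± 0.14) and Des (-0.07 ± 0.26), not called. Of 5 endothelial markers 3 were called lower, among them Tek (-0.82 ± 0.13) and Plvap (-0.93 ± 0.27), whose call was lost without any 1 of KO replicates 1, 2 and 3 and WT replicates 1 and 2 (log2 changes from -1.05 to -0.80). These libraries come from whole cultures, where fewer cells of a type and less RNA per cell cannot be told apart. The part of such cells in the values below was not tested.

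The promoters of the members were read first, because SREBP acts with the factor NF-Y at known letters: the sterol regulatory element, searched as TCACNCCAC, and the CCAAT box. RefSeq (GRCm38.p6) gave windows of 300 bases, 250 before to 50 after a start site, for 26 of the 33 members, 35 windows in all. The windows below are those of Hmgcs1, the single member with an exact sterol regulatory element, of the 4 synthesis enzymes with the largest log2 change, and of Abca1, an LXR target that was lower in KO. Each is written 5′ to 3′ on the strand of its gene, and capitals mark CCAAT on either strand (read as ATTGG on the opposite one) and the sterol regulatory element.
Hmgcs1 (chr13:119690101-119690400, plus strand): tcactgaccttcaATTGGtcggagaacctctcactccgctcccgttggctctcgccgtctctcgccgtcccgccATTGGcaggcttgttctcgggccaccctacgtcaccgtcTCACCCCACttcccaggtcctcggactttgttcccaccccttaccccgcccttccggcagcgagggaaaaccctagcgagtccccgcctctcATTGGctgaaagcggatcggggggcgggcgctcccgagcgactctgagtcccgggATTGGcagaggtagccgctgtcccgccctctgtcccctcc
Msmo1 (chr8:64733529-64733828, minus strand): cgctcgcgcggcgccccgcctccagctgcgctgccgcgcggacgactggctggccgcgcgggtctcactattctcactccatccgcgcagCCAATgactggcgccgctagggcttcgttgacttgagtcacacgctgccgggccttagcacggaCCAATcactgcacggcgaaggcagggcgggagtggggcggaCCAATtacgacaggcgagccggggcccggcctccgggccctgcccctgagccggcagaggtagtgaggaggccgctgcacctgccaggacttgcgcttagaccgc
Idi1 (chr13:8885356-8885655, plus strand): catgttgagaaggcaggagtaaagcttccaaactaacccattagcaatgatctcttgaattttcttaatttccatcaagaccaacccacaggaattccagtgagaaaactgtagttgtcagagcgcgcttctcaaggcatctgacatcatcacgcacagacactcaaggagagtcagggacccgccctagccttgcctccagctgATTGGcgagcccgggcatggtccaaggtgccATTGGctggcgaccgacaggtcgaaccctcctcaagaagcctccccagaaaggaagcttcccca
Mvd (chr8:122443373-122443672, minus strand): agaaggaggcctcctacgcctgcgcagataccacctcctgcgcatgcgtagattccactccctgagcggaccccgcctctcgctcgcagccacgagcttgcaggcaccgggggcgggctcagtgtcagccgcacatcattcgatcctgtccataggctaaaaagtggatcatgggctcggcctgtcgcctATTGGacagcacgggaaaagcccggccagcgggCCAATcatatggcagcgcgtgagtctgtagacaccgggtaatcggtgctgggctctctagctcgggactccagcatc
Hsd17b7 (chr1:169969156-169969455, minus strand): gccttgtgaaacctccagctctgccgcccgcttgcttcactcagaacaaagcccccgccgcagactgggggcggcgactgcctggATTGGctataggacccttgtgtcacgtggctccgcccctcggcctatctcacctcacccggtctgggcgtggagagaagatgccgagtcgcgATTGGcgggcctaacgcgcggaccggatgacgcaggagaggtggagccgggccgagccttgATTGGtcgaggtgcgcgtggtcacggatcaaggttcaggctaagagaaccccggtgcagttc
Abca1 (chr4:53159846-53160145, minus strand): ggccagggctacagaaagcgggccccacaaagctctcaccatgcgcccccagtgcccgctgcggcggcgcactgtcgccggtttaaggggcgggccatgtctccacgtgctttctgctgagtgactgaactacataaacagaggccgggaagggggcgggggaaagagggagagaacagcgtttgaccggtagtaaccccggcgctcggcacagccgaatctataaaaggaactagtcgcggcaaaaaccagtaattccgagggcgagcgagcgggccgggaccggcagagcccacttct

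The element of Hmgcs1 starts 137 bases before the start site and reads TCACCCCAC on the gene's own strand, with 4 CCAAT boxes on the opposite strand in the same window. Msmo1 and Hsd17b7 hold 3 CCAAT boxes each, Idi1 and Mvd 2 each, and Abca1 none. Mylip, which was lower in KO, holds 3 as well, and Lbr and Ebp, neither of them called, hold 2 each. Over the 35 member windows, 22 (62.9%) held CCAAT on either strand, and so did 15 of the 19 windows of synthesis enzymes (78.9%). Over all 32851 RefSeq windows of the same length the share was 37.4%, and it was 37.4% over the 15395 windows of genes that entered the fit. Counted by gene, 15 of the 16 synthesis enzymes with a promoter window held it in at least 1 window, a count without a background by gene. The GC box GGGCGG was in 26 member windows (74.3%), against 35.7% of all windows and 58.9% of those of genes in the fit. The E-box CACGTG was in 7 (20.0%, against 7.15% and 9.35%). Windows of a gene can overlap, and these 7 belong to 6 genes, since overlapping windows of Scap hold the same E-box. The exact sterol regulatory element was in 1 member window (2.86%), against 1.24% of all windows and 1.16% of those of genes in the fit. With 1 mismatch allowed, a search chosen after the exact result was seen, it was in 13 (37.1%), against 24.2% and 25.5%. An LXR element was searched as DR4, 2 direct repeats of a half-site with 4 bases between. It was in 0 of the 35 member windows, that of Abca1 included, against 0.231% of all windows and 0.143% of those of genes in the fit. So rare a match cannot show a difference in 35 windows. These are matches of letters in short windows and show no binding.

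The mevalonate steps were the first group. Of these 7 enzymes 6 were called higher in KO and none lower, where 11.2% of all genes tested were called higher and 11.7% lower. Those shares stand beside the members' counts only as background, since the comparison itself chose the members. Idi1, the isomerase that balances both isoprenoid units, was at 26.7, 26.1 and 26.1 FPKM in KO and 18.6, 17.1 and 18.3 in WT. All KO libraries lay well above all WT libraries, and the log2 change was 0.50 ± 0.04, or 41.2% more. Mvd, the decarboxylase just before it, was at 23.1, 20.4 and 22.6 FPKM in KO and 17.0, 15.6 and 15.3 in WT (0.42 ± 0.07). Fdps, which joins the units to farnesyl diphosphate, was at 41.6, 38.8 and 40.3 FPKM in KO and 30.8, 32.0 and 31.5 in WT (0.31 ± 0.03). Both had KO libraries entirely above WT.

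Upstream of these, the differences were smaller. Hmgcs1, the synthase at the entry of the pathway and the most abundant of the synthesis enzymes, was at 63.8, 61.3 and 65.7 FPKM in KO and 53.3, 52.7 and 55.8 in WT (0.19 ± 0.04). Mvk, mevalonate kinase, was at 23.6, 23.2 and 22.5 FPKM in KO against 19.6, 18.4 and 19.5 in WT (0.22 ± 0.04). Neither gene's groups overlapped. Acat2, the cytosolic thiolase that makes acetoacetyl-CoA, differed less (0.13 ± 0.04) and was not called without any 1 of the 6 libraries (log2 changes 0.10 to 0.15). Its near copy Acat3 had 6.45% of its counts, and the sources used here do not say how reads that fit both were counted. The same holds for Idi1 and its pseudogene Idi1-ps1, with 6.12% of the counts of Idi1. Pmvk, the kinase between Mvk and Mvd, did not follow the others. It was at 13.1, 12.8 and 14.4 FPKM in KO and 13.7, 14.5 and 13.4 in WT, which overlap, with a log2 change of -0.09 ± 0.07.

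**Figure D1:**
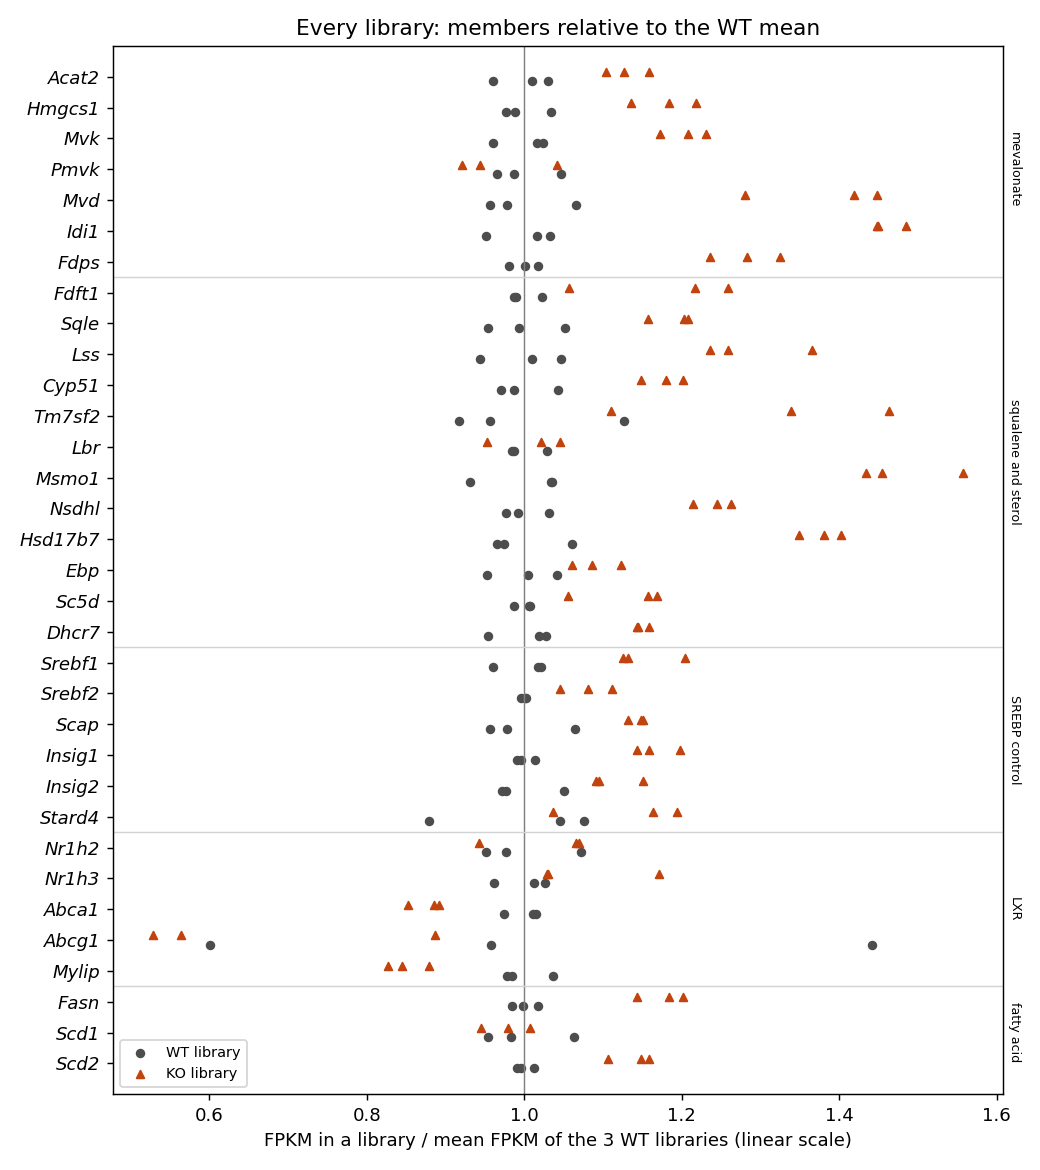
FPKM of each of the 33 members in each library divided by the mean of the 3 WT libraries (x axis, linear), with genes on the y axis grouped by role, KO libraries as triangles and WT libraries as circles. Msmo1 and Idi1 lie farthest to the right in KO, Abca1 and Mylip lie left of WT, and Pmvk, Lbr and Scd1 overlap.

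Of the 12 enzymes from squalene to cholesterol 7 were called higher and none lower, and 11 had a log2 change above 0. The largest changes among those called were in Msmo1 and Hsd17b7, which act in removing the C4 methyl groups of sterols. Msmo1, the C4-methylsterol oxidase, was at 19.0, 18.7 and 20.3 FPKM in KO and 13.5, 12.1 and 13.5 in WT (0.52 ± 0.05). Hsd17b7, the 3-ketosteroid reductase of the same steps, was at 19.5, 20.3 and 20.0 FPKM in KO against 14.0, 14.1 and 15.3 in WT (0.41 ± 0.04). In both genes the lowest KO library stood far above the highest WT library. Lss, which closes squalene epoxide to lanosterol, was low in level but separated, at 6.58, 6.70 and 7.27 FPKM in KO and 5.57, 5.02 and 5.37 in WT (0.31 ± 0.05). Nsdhl, the C4 decarboxylase between Msmo1 and Hsd17b7, was at 24.7, 25.4 and 25.7 FPKM in KO and 21.0, 19.9 and 20.2 in WT (0.26 ± 0.04).

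Sqle, squalene epoxidase, was at 23.7, 24.8 and 24.7 FPKM in KO and 20.4, 19.6 and 21.6 in WT (0.20 ± 0.04). Cyp51, the lanosterol demethylase, was at 42.2, 43.4 and 44.2 FPKM in KO and 35.7, 36.3 and 38.3 in WT (0.19 ± 0.03). Both were separate between genotypes with smaller changes than Msmo1. Dhcr7, which catalyses the last step of one branch, changed by 0.15 ± 0.04 and was not called without any 1 of KO replicates 1, 2 and 3 and WT replicates 2 and 3 (0.12 to 0.16).

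Among the 5 sterol enzymes not called, Fdft1, squalene synthase, was at 21.5, 18.7 and 22.2 FPKM in KO and 17.5, 17.4 and 18.1 in WT (0.19 ± 0.06), and was called without KO replicate 2 (0.26). In the deposited coordinates Fdft1 overlaps Ctsb, a lysosomal protease gene on the other strand with 954% of its counts and a log2 change of 0.34. Whether counting used strand is not given, so reads of the 2 genes may be mixed. Sc5d, the C5 desaturase (0.12 ± 0.04), was also called without KO replicate 2 (0.17), and Tm7sf2, a C14 reductase (0.33 ± 0.11), without KO replicate 3 or WT replicate 1 (0.43 for both). Lbr, a nuclear envelope protein that carries the same C14 reductase activity as Tm7sf2, was at 6.06, 6.20 and 5.65 FPKM in KO and 6.10, 5.84 and 5.85 in WT. Its groups overlap, and its log2 change of -0.04 ± 0.05 turned to 0.0078 on library totals without TMM. Ebp, the sterol isomerase, stood at 0.07 ± 0.06.

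**Figure D2:**
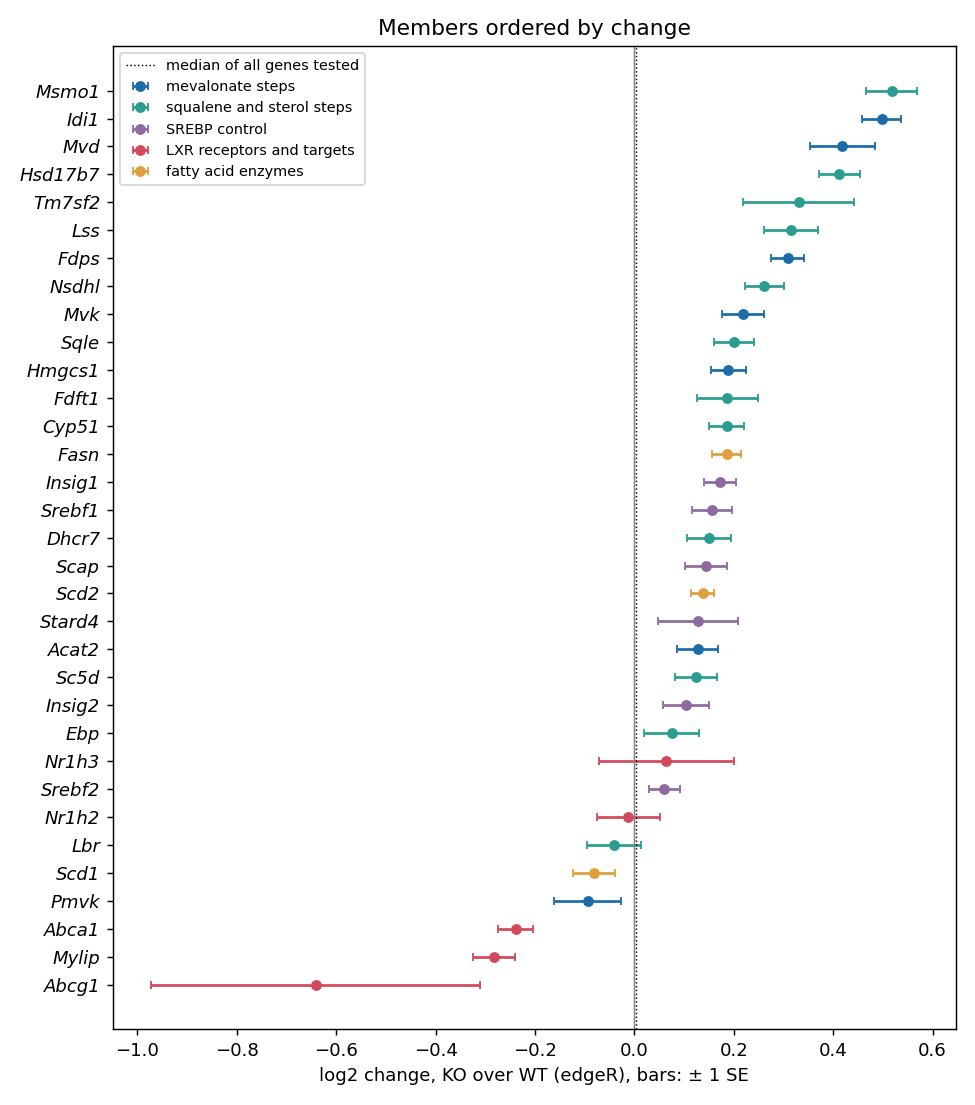
The log2 change KO over WT of each of the 33 members with bars of ± 1 SE (x axis), genes ordered by change on the y axis and coloured by role, the dotted line being the median of all genes tested. Synthesis enzymes fill the upper end, led by Msmo1 at 0.52, and the LXR targets Abca1, Mylip and Abcg1 the lower end.

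As a sum, the 19 synthesis enzymes stood at 437, 425 and 443 FPKM in KO and 360.1, 349.7 and 363 in WT. The mean in KO was 1.22 times that in WT, on the FPKM scale. The mevalonate steps (219 ± 5.47 against 180 ± 2.68 FPKM, SD, n = 3) and the squalene and sterol steps (216 ± 4.06 against 178 ± 4.48) shared this difference. In TMM-scaled counts, 14 of the 19 had every KO library above every WT library and none the reverse, where 19.2% of all genes tested lay wholly above and 19.1% wholly below.

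The genes that control the pathway changed less. Of 6, 3 were called higher and none lower. Srebf1, which encodes SREBP-1, the form that chiefly drives fatty acid genes, was at 21.2, 21.3 and 22.6 FPKM in KO and 18.1, 19.1 and 19.2 in WT (0.16 ± 0.04). It was not called without KO replicate 3 (0.12) or WT replicate 1 (0.13). Srebf2 encodes SREBP-2, the form that chiefly drives cholesterol genes. It was at 33.9, 32.8 and 34.9 FPKM in KO and 31.5, 31.3 and 31.5 in WT, which did not overlap. The log2 change was 0.06 ± 0.03 and was not called, though it was in 3 of 14 alternatives, among them library totals without TMM. The Srebf1 product and that of Srebf2 act after cleavage, which RNA levels do not show.

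Insig1, which retains Scap and is itself a target of SREBP, was at 37.1, 36.7 and 38.4 FPKM in KO and 31.8, 32.5 and 31.9 in WT (0.17 ± 0.03). The KO libraries lay above WT. Insig2, its relative, was at 0.10 ± 0.05 and was not called, though it was in 3 of 14 alternatives. Scap, the escort, stood at 0.14 ± 0.04, with no call without any 1 of KO replicates 1, 2 and 3 and WT replicates 1 and 2 (0.11 to 0.16). Stard4, a sterol carrier and SREBP-2 target, was at 8.08, 9.31 and 9.07 FPKM in KO and 8.15, 6.85 and 8.39 in WT (0.13 ± 0.08), with overlap. Of the overlaps between members and neighbouring genes in the deposited coordinates, that of Srebf1 with Rai1 (other strand, 109 bases) and that of Cyp51 with Akap9 (other strand, 166 bases) involve well-read neighbours, with log2 changes of -0.12 and -0.18. Tm7sf2 overlaps Vps51 on the same strand by 9 bases, and Vps51 had 202% of its counts and a log2 change of -0.05.

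The LXR genes did not rise with the synthesis enzymes. Of 5, none was called higher and 2 were called lower. Abca1, the pump that exports cholesterol to lipid-poor particles, was at 8.11, 8.48 and 8.41 FPKM in KO and 9.65, 9.61 and 9.26 in WT (-0.24 ± 0.03). Mylip, the ubiquitin ligase also called IDOL that limits sterol uptake, was at 15.2, 15.8 and 14.8 FPKM in KO and 18.6, 17.6 and 17.7 in WT (-0.28 ± 0.04). For both, every KO library lay below every WT library. Abcg1, a second sterol exporter, was scarcely read, at 0.239, 0.152 and 0.143 FPKM in KO and 0.389, 0.258 and 0.162 in WT, with overlap and a wide error (-0.64 ± 0.33). The receptors themselves differed little. Nr1h2, which encodes LXR-beta, was at 17.5, 15.5 and 17.6 FPKM in KO and 15.6, 17.6 and 16.1 in WT (-0.01 ± 0.06, but 0.036 on library totals without TMM and 0.048 without KO replicate 2). Nr1h3, which encodes LXR-alpha, was far lower at 1.49, 1.49 and 1.69 FPKM in KO and 1.39, 1.48 and 1.46 in WT (0.06 ± 0.14, and -0.0059 without KO replicate 3), close together in FPKM and overlapping in TMM-scaled counts. Abca1, Abcg1 and Nr1h3 are also genes of macrophages, whose summed markers stood at 2.33 times the WT level in KO.

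Of the 3 fatty acid enzymes 2 were called higher and none lower. Scd2, the desaturase most read here, was at 244, 233 and 242 FPKM in KO and 213, 210 and 209 in WT (0.14 ± 0.02). Fasn, fatty acid synthase, was at 26.6, 25.3 and 26.2 FPKM in KO and 22.5, 22.1 and 21.8 in WT (0.19 ± 0.03). Both had every KO library above every WT library. Scd1, the related desaturase typical of fat cells, was at 52.5, 50.6 and 54.0 FPKM in KO and 57.0, 52.6 and 51.1 in WT, which overlap (-0.08 ± 0.04, not called). Adipocyte markers were lower in the same KO libraries.

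By level per length, Scd2 came first in both genotypes (210 ± 2.36 FPKM in WT and 239 ± 5.81 in KO, SD, n = 3). Hmgcs1 (54.0 ± 1.63 in WT) and Scd1 (53.6 ± 3.04) followed and did not differ beyond their spread in WT, then Cyp51 (36.8 ± 1.38), Insig1 (32.1 ± 0.38), Srebf2 (31.4 ± 0.0955) and Fdps (31.4 ± 0.577). At the low end were Lss (5.32 ± 0.278), Tm7sf2 (2.73 ± 0.304), Nr1h3 (1.44 ± 0.0493) and Abcg1 (0.27 ± 0.114). The order of the members changed little between genotypes, the largest moves being those of Idi1 (place 15 in WT, 9 in KO) and Mylip (16 and 22).

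**Figure D3:**
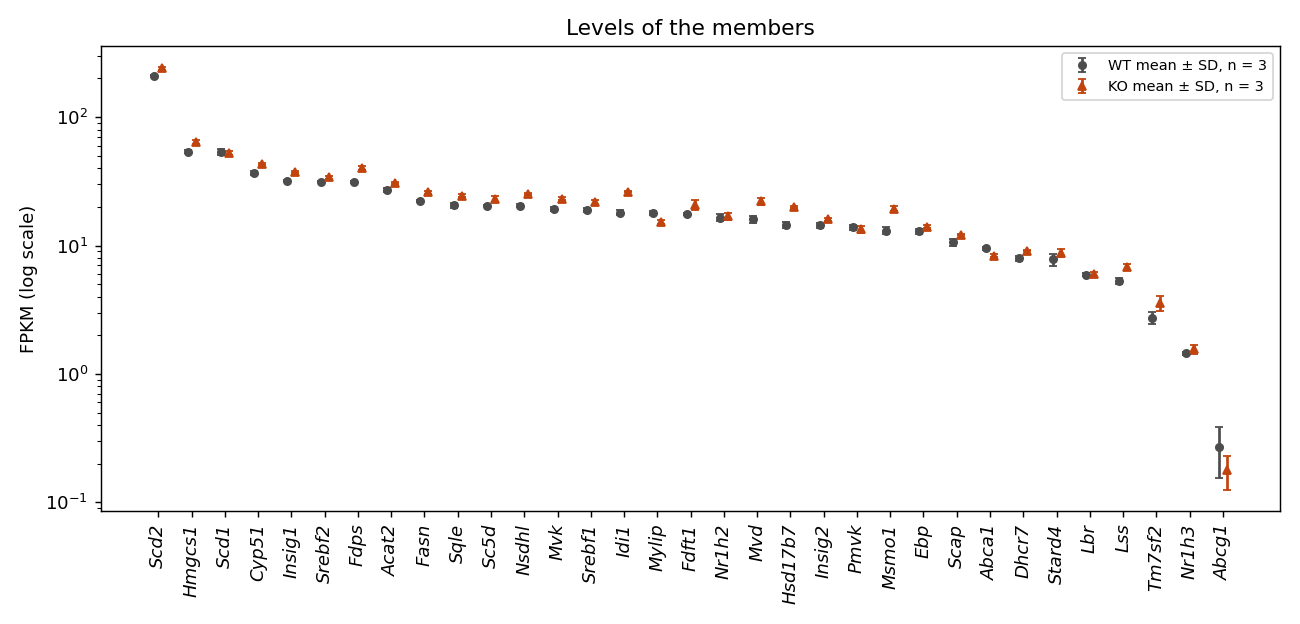
FPKM of the 33 members (y axis, log scale) as mean ± SD of 3 libraries, WT as circles and KO as triangles, ordered by the WT mean. Levels run from Scd2 at 210 FPKM in WT down to Abcg1 at 0.27 FPKM, and the genotype differences are small beside the differences between genes.

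Between replicates of a genotype the synthesis enzymes shifted together to a slight degree in some libraries. In KO replicate 3, 15 of the 19 lay above the KO mean of their own gene, and in KO replicate 2 only 5 did. KO replicate 1 showed no such shift, with 10 of 19 above and a median deviation of 0.0009. In WT replicate 2 only 3 of 19 lay above the WT mean, against 12 in WT replicate 1 and 13 in WT replicate 3. Over all genes tested, 50.4% to 51.7% lay above in each library. The medians of these deviations ran from -0.04 (WT replicate 2) to 0.04 (WT replicate 1) on the log2 scale. Each deviation is from a mean that includes the library itself, so differences between 2 libraries can be larger. For each gene the deviations of a genotype balance out, so a low library lifts the others. The enzymes of a library share its scaling, so this is a description of 6 libraries.

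**Figure D4:**
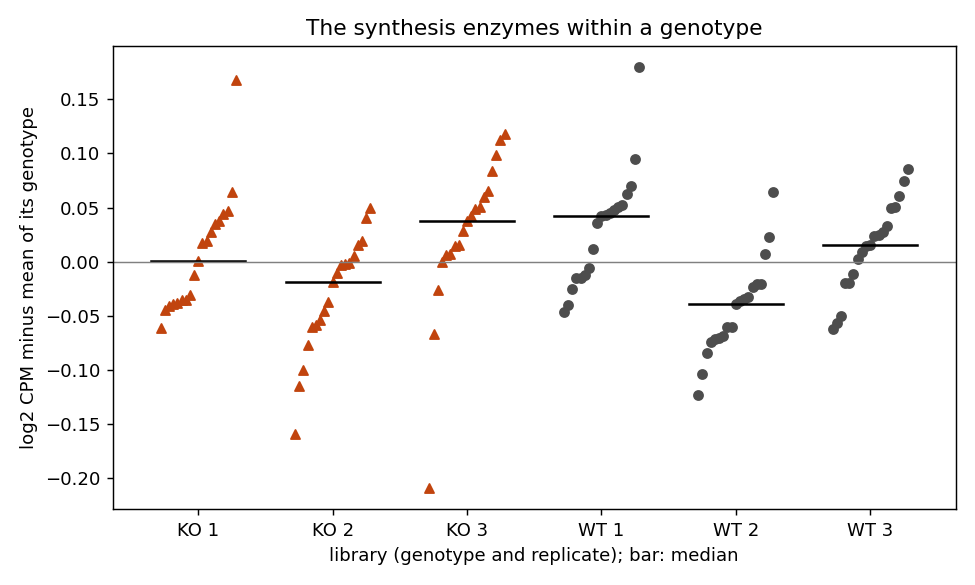
Deviation of the 19 synthesis enzymes from the mean of their genotype (y axis, log2 CPM), 1 point per gene in each of the 6 libraries on the x axis, with a bar at the median. The points of WT replicate 2 and KO replicate 2 sit mostly below 0, and those of KO replicate 3, WT replicate 1 and WT replicate 3 mostly above.

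Genes of the pathway outside the 33 members were taken from lists written by function. The lists were written with earlier results of these data known, for a pathway chosen because it rose in KO. Their calls and adjusted p-values are therefore a description and no independent check of that rise. Of 75 such genes 74 were tested, and 24 were called higher and 8 lower in KO, with a median log2 change of 0.05. Without any 1 library the counts ran from 16 to 20 higher and from 6 to 8 lower. In the same edgeR test 11.2% of all genes were called higher and 11.7% lower. On library totals without TMM 63.0% of all calls were higher, against 49.0% with TMM.

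In the list of fatty acid and lipid synthesis, more genes were called higher than lower. Of 16 genes 9 were called higher and 1 lower, with a median of 0.12. Mid1ip1, an activator of acetyl-CoA carboxylase, was at 12.7, 13.0 and 12.2 FPKM in KO and 8.32, 8.97 and 9.35 in WT (0.46 ± 0.06, edgeR, Benjamini-Hochberg adjusted p = 3.56e-04). Lpin1, a phosphatidate phosphatase, was at 3.98, 3.79 and 3.69 FPKM in KO and 2.83, 2.72 and 2.91 in WT (0.39 ± 0.05, adjusted p = 3.66e-04). Both rose in every KO library relative to every WT library. Elovl6, a fatty acid elongase (0.27 ± 0.04, adjusted p = 0.0011), and Aacs, which feeds acetoacetate into lipid synthesis (0.20 ± 0.03, adjusted p = 9.88e-04), rose too. Gpam, which starts triglyceride synthesis, fell (-0.18 ± 0.04, adjusted p = 0.00581). Acly, the citrate lyase that makes cytosolic acetyl-CoA (0.09 ± 0.03, adjusted p = 0.054), and the desaturase Fads1 (0.04 ± 0.03, adjusted p = 0.413) were not called. Acly passed in the same test without KO replicate 2 (0.11, adjusted p = 0.042) or WT replicate 1 (0.11, adjusted p = 0.0346), and over 14 alternatives its adjusted p ran from 0.00619 to 0.175.

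The isoprenoid branches, which leave the pathway for protein prenylation, dolichol and ubiquinone, hardly moved. Of 13 genes 2 were called higher and none lower (median 0.03), close to the background share. They were Fnta, the shared subunit of the prenyltransferases (0.15 ± 0.03, edgeR, Benjamini-Hochberg adjusted p = 0.00645), and Nus1, a subunit of the dolichol-making enzyme (0.16 ± 0.04, adjusted p = 0.0178). Nus1 was not called without KO replicate 2 (0.13, adjusted p = 0.0629), WT replicate 2 (0.14, 0.067) or WT replicate 3 (0.14, 0.0745). Icmt, a methyltransferase for prenylated proteins (0.03 ± 0.04, adjusted p = 0.653), and Dhdds, the partner of Nus1 (-0.10 ± 0.05, adjusted p = 0.247), were the most read of those not called.

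Genes for SREBP processing went both ways, 2 of 10 called higher and 2 lower (median 0.02). Mbtps1, the site-1 protease that makes the first cut in SREBP, was at 30.9, 30.1 and 29.3 FPKM in KO and 34.1, 34.4 and 33.3 in WT (-0.22 ± 0.03, edgeR, Benjamini-Hochberg adjusted p = 1.47e-04). Every KO library lay below every WT library. Rnf139, a ubiquitin ligase of the endoplasmic reticulum linked to sterol sensing, fell as well (-0.24 ± 0.06, adjusted p = 0.0113), though not without WT replicate 3 (-0.20, adjusted p = 0.0535). Pgrmc1, a heme protein that binds Insig1 and Scap, rose (0.13 ± 0.03, adjusted p = 0.00403). Erlin2, a cholesterol-binding protein of the endoplasmic reticulum, was called higher (0.12 ± 0.03, adjusted p = 0.029) but lost its call without any 1 of KO replicates 1, 2 and 3 and WT replicates 2 and 3 (0.10 to 0.13, adjusted p = 0.0529 to 0.109). Its relative Erlin1 was not called (0.12 ± 0.05, adjusted p = 0.159).

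Of 19 genes of sterol uptake, transport and storage 10 were called higher and 1 lower (median 0.11). Cav1, caveolin-1, which binds cholesterol in caveolae, was at 64.5, 60.6 and 62.3 FPKM in KO and 33.6, 36.7 and 32.4 in WT. That was the largest change of the list, at 0.82 ± 0.04 (edgeR, Benjamini-Hochberg adjusted p = 5.94e-07). Gramd1b, which moves cholesterol from the plasma membrane to the endoplasmic reticulum, changed by 0.57 ± 0.10 (adjusted p = 0.00157). Soat1, which esterifies cholesterol for storage (0.24 ± 0.04, adjusted p = 0.00216), and the lysosomal acid lipase Lipa (0.30 ± 0.03, adjusted p = 7.56e-05) rose as well. Soat1 and Lipa are also genes of macrophages, whose summed markers stood 2.33 times as high in KO, and the part of those cells was not tested. Osbpl2, an oxysterol-binding protein, fell (-0.27 ± 0.04, adjusted p = 6.72e-04). Its relatives Osbp (-0.08 ± 0.03, adjusted p = 0.12) and Osbpl9 (0.01 ± 0.03, adjusted p = 0.836) were not called.

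The list of LXR partners, targets and oxysterol enzymes leaned the other way, with 1 of 16 tested genes called higher and 4 lower (median -0.06). Rxrb, a retinoid X receptor that pairs with LXR, was at 9.72, 9.89 and 9.49 FPKM in KO and 11.8, 11.9 and 10.9 in WT (-0.30 ± 0.05, edgeR, Benjamini-Hochberg adjusted p = 0.00134). The corepressor Ncor1 fell (-0.17 ± 0.03, adjusted p = 0.00266), but was not called in limma on log2(FPKM + 1) (adjusted p = 0.0527, range 1.14e-05 to 0.0739 over 14 alternatives). Rxra (-0.10 ± 0.03, adjusted p = 0.0403) lost its call in 11 of 14 alternatives, among them the leaving out of KO replicates 1, 2 or 3 or of WT replicates 2 or 3 (adjusted p = 0.0829 to 0.132). The LXR target Arl4c, a small GTPase, was called higher (0.22 ± 0.06, adjusted p = 0.0264), but not without any 1 of KO replicates 1, 2 and 3 and WT replicates 1 and 2 (0.19 to 0.23, adjusted p = 0.0528 to 0.0887). The LXR targets Lpcat3, a phospholipid acyltransferase (-0.00 ± 0.04, adjusted p = 0.983), and Smpdl3a, a phosphodiesterase (-0.04 ± 0.05, adjusted p = 0.703), did not pass, and each turned to the other sign on library totals without TMM (0.047 and 0.013).

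**Figure D5:**
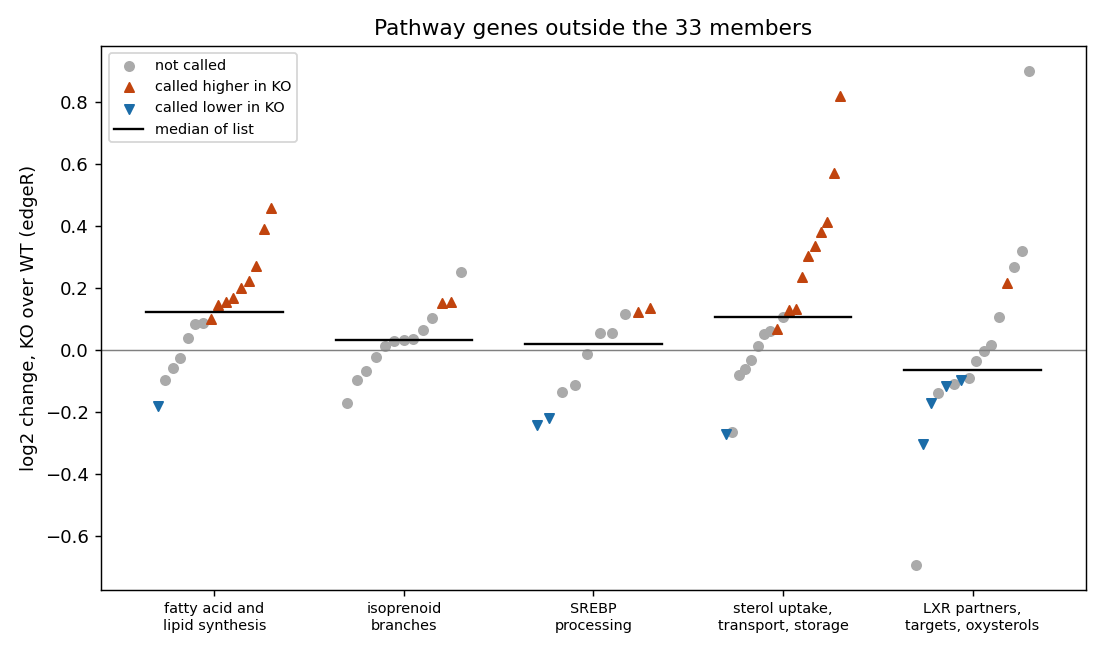
The log2 change KO over WT (y axis) of the 74 tested pathway genes outside the members, by list on the x axis, with upward triangles called higher, downward triangles called lower, circles not called and a bar at the median of the list. The medians are 0.12 for lipid synthesis and 0.11 for sterol transport, and -0.06 for the LXR list.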

How the data were processed

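Gene expression was measured by RNA-seq in 6 libraries, 3 KO and 3 WT, grouped by their titles. The single table held counts and FPKM for 29018 genes. The authors deposited whole-number counts per gene, per the file headers, and do not name the counter. They also deposited FPKM, which scales fragments to transcript length and library total. The submitters' processing notes name cutadapt 1.9, HISAT2 2.0.4 and StringTie 1.3.4d and a human build, although all identifiers are of mouse, so the build of the deposited coordinates is not given. Promoter windows are from RefSeq, GRCm38.p6.

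The main test was edgeR 4.0.16 in R 4.3.3, with its quasi-likelihood F test on TMM-scaled counts, no covariate and low genes removed by filterByExpr, over 18221 genes, with Benjamini-Hochberg adjustment over all of them. SEs were taken as the size of the log2 change divided by the root of F. The common biological coefficient of variation was 12.6%, and total counts ran from 61461870 to 76159034. Alternatives were DESeq2 1.42.0, edgeR on library totals, with size factors of DESeq2, with a block for the replicate number or with no count filter, limma 3.58.1 on log2(FPKM + 1), filtered at a mean of 1 or unfiltered, or on log2(FPKM + 0.1), and each library left out. The pipeline was tested on simulated data.

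The members and gene lists were chosen with earlier results of these data known. Genes outside the members were named by rule: in each list up to 4 called genes per direction of lowest p and up to 2 not called of highest count, and the 2 most read markers of each cell type. Spp1, Bglap and the zero-count adipocyte and muscle genes were named after their values were seen. Some genes that this rule picks are not reported here, though the counts over lists include them.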

Additional observations from a re-analysis of the deposited data

How the results depend on the processing

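The lower calls over all genes fell from 2131 to 1267 in limma on log2(FPKM + 1), 1254 with a pseudocount of 0.1 and 1246 without a filter, and those of other pathway genes from 8 to 5, 5 and 4. The median log2 change over the members was 0.19, 0.20 and 0.19 in these fits and 0.20 on library totals without TMM. Filtered FPKM fits hold 32 of the members, without Abcg1. These scalings shift the change of a typical gene upward by 0.04 to 0.05. In all 14 alternatives 15 to 23 members were called higher and 2 lower, Abca1 and Mylip each time. Members that gained a call were Fdft1 (6 of 14), Sc5d and Tm7sf2 (5 each), and Srebf2 and Insig2 (3 each). Members that lost one were Acat2 (8 of 14), Dhcr7 and Scap (6 each), and Srebf1 (2). Leaving out 1 library gave 1588 to 1731 higher and 1712 to 1893 lower calls over all genes, 15 to 17 and 2 members, and a member median of 0.13 to 0.17. The sign turned for genes near 0, none of them called. The log2 change of Lbr was 0.0078 on library totals, 0.0077 in FPKM without filter, 0.0088 with a pseudocount of 0.1 and 0.0077 with 1. The log2 change of Nr1h2 was 0.036 on library totals, 0.034 in FPKM without filter, 0.036 with a pseudocount of 0.1 and 0.034 with 1. The log2 change of Lpcat3 was 0.047 on library totals, 0.046 in FPKM without filter, 0.048 with a pseudocount of 0.1 and 0.046 with 1. The log2 change of Smpdl3a was 0.013 on library totals, 0.013 in FPKM without filter, 0.013 with a pseudocount of 0.1 and 0.013 with 1. Lpcat3 was at 0.0084 without a count filter. Leaving out 1 library, the change ran for Nr1h2 from -0.049 (without KO replicate 3) to 0.048 (without KO replicate 2), for Nr1h3 from -0.0059 (without KO replicate 3) to 0.10 (without KO replicate 1), for Lpcat3 from -0.024 (without KO replicate 2) to 0.029 (without WT replicate 3), for Smpdl3a from -0.084 (without KO replicate 1) to 0.0015 (without WT replicate 1), for Icmt from -0.0011 (without KO replicate 1) to 0.054 (without KO replicate 2), for Des from -0.39 (without KO replicate 1) to 0.13 (without KO replicate 2).

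Replicate numbers did not pair the libraries. Same-numbered KO and WT libraries had deviations correlated at -0.043 to -0.0072, and with a replicate block 18 members were called higher and 2 lower, the same counts as without it but not the same genes, with 1912 and 1976 calls over all genes. Under the block Acat2 and Dhcr7 lost their call and Fdft1 and Tm7sf2 gained one, and among other named genes Rxra lost its call (adjusted p = 0.066). Abcg1, with 73 counts in its lowest library, is the member that depth limits most. The authors' counting method, the overlap of Fdft1 with Ctsb and the cell mix of the cultures limit single values, and whether any small change reflects cells or RNA per cell cannot be told apart.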
